A study of Homo sapiens with 8 samples.

Results

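The genes described here are TRIT1, the transferase that attaches an isopentenyl group to certain transfer RNAs, and 9 genes of selenoproteins, GPX1, GPX4, TXNRD1, SELENOW, SELENOH, SELENOP, SELENOK, SELENOS and SELENON. These 10 genes were chosen by symbol, from the 22428 named genes that had a probe on the array, and where a gene had several probes the brightest one, averaged over the 8 arrays, stands for it. Their RNA was measured in OVSAHO and KURAMOCHI, established cell lines from human ovarian carcinoma, cultured with simvastatin or with L-778123. Simvastatin is a statin, a class of drugs that block the mevalonate pathway at an early step, and L-778123 inhibits both enzymes that attach farnesyl or geranylgeranyl groups to proteins, further down the same pathway. Each of the 4 groups had 2 one-color arrays, and the comparison asks what simvastatin regulates relative to L-778123. Untreated cells were not analysed here, and each fold change sets the drugs against each other without showing which of them acted. The sources used here give neither concentrations nor treatment times for these cultures, and nothing says whether the 2 arrays of a group came from separate cultures, so the p-values measure the spread between arrays, which may be technical.

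Selenoproteins carry selenocysteine, the selenium-containing analog of cysteine, usually at the active site of an enzyme that handles peroxides or disulfides. Selenocysteine is made on its own transfer RNA and is inserted at a UGA codon, which elsewhere means stop, with the help of a hairpin in the messenger RNA and the proteins that bind it. TRIT1 modifies a base next to the anticodon of this transfer RNA, and the dimethylallyl diphosphate that it uses is a product of the mevalonate pathway, upstream of the prenylation enzymes. The arrays measure messenger RNA; neither the modification of the transfer RNA nor selenoprotein itself was measured.

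Levels are log2 intensities relative to the 75th percentile of the array, a scale on which only 1 probe can be compared across arrays. The 75th percentile was 324 to 437 intensity units, 51.8% to 57.5% of the 58162 probes were well above background, and replicate arrays correlated at 0.995 to 0.996 over the probes tested. The 10 probes were well above background on all 8 arrays and no spot was saturated. All arrays lay on 1 slide, where each had its own position, so position and group cannot be told apart. A gene passed where its adjusted p was under 0.05 in limma, with Benjamini-Hochberg adjustment over all 33752 probes tested, and was called where it also changed at least 2-fold. In bulk RNA, fewer cells of a type and less RNA per cell cannot be told apart. Of 8 serous carcinoma markers fixed as a list, all 8 were tested, from PAX8 at 3.75 to 4.89 to MUC16 at -3.32 to 2.92. Between the lines, PAX8, MUC16, EPCAM, KRT7 and CDH1 were higher in OVSAHO, KRT8 and KRT18 were lower, and WT1 did not pass. Of 5 fibroblast markers only COL1A1 was tested, at -7.44 to -2.08, and of 5 blood and endothelial markers PTPRC, at -3.02 to -1.64, and VWF, at -3.91 to -0.55, were tested. VWF fell by 3.30 on the log2 scale in OVSAHO, the largest drug difference among these markers, and its part in the results was not tested.

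In OVSAHO, 4 of the 10 genes rose with simvastatin relative to L-778123 and 0 fell. TXNRD1, a thioredoxin reductase of the cytosol, rose 1.74-fold and SELENOP, the secreted selenium carrier, rose 1.39-fold. GPX4, which reduces lipid peroxides in membranes, rose 1.20-fold and SELENOS, a membrane protein of the endoplasmic reticulum, rose 1.15-fold. Over the 16941 genes tested, 26.5% rose and 27.5% fell in this contrast, beside which 4 of 10 higher and 0 of 10 lower are to be read. The median log2 fold change of the 10 genes was 0.085, beside 0.014 over all genes. At an unadjusted p under 0.05, 6 of the 10 genes differed in either direction. The two-way analysis of variance of the methods with Tukey's test gave 1 gene lower, TRIT1, and did not keep the rise of GPX4 (adjusted p = 0.059). None of the 10 genes reached 2-fold in this line, where 5.69% of all genes were called higher and 5.87% lower.

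In KURAMOCHI, SELENOP rose 1.5-fold and SELENOS 1.21-fold, while TXNRD1 fell 1.34-fold and SELENON, a calcium-linked reductase of the endoplasmic reticulum, fell 1.20-fold. These 2 genes higher and 2 lower of 10 stand beside 17.1% higher and 18.4% lower over all genes, shares near those of the background. The median log2 fold change was -0.061, beside 0.012 over all genes, and again none of the 10 reached 2-fold, a size at which 2.43% of all genes were called higher and 2.93% lower. TRIT1 itself did not pass in either line, although in OVSAHO it did under other settings, given with its values.

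**Figure D1:**
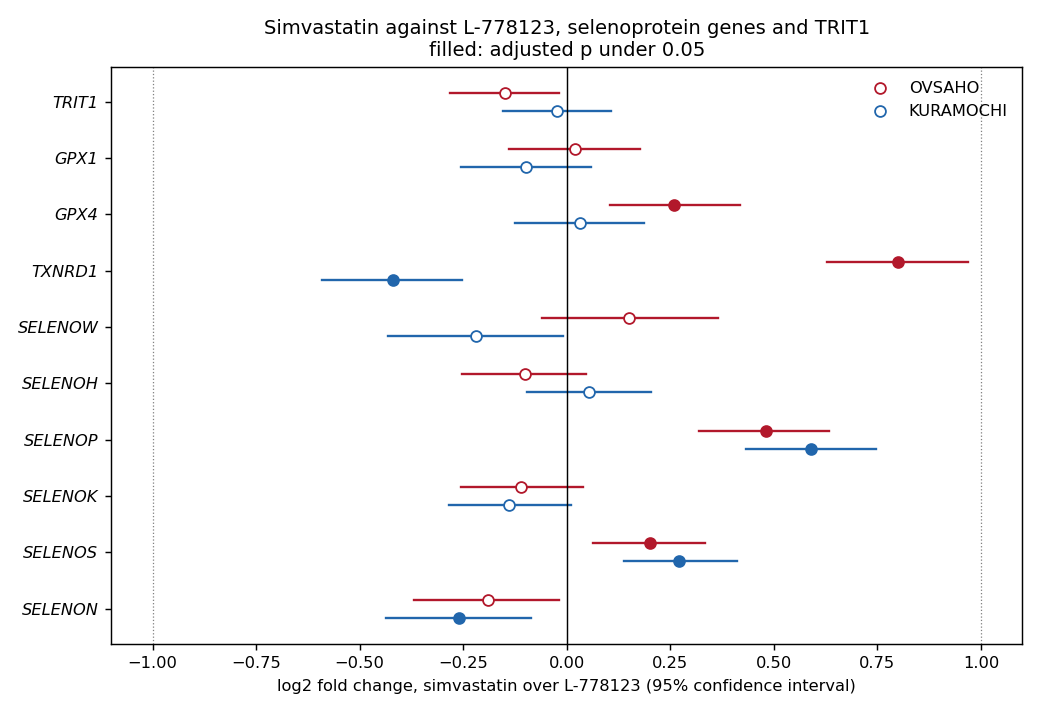
Log2 fold change of simvastatin over L-778123 for the 10 genes in OVSAHO (red) and KURAMOCHI (blue), with bars for the 95% confidence interval from limma, filled points for genes with an adjusted p under 0.05 and dotted lines at 2-fold. SELENOP and SELENOS lie to the right in both lines, and TXNRD1 lies at 0.80 in OVSAHO and at -0.42 in KURAMOCHI.

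TXNRD1 was the gene whose response differed between the lines. Thioredoxin reductase passes electrons from NADPH to thioredoxin, and from there to peroxiredoxins and ribonucleotide reductase. TXNRD1 (NM_001261445) stood at 0.15 and 0.12 with simvastatin and at -0.66 and -0.67 with L-778123 in OVSAHO. In KURAMOCHI it stood at 0.38 and 0.54 with simvastatin and at 0.88 and 0.89 with L-778123. No arrays of different groups overlapped, and the drugs are ordered oppositely in the 2 lines. The log2 fold change was 0.80 in OVSAHO (SE 0.0686, adjusted p = 0.000437) and -0.42 in KURAMOCHI (SE 0.0686, adjusted p = 0.00764). The difference of these effects was 1.22 (95% interval 0.981 to 1.462, adjusted p = 0.00122), and TXNRD1 was the 1 gene of the 10 that passed this test, in which 13.4% of all genes were higher and 14.0% lower. At an unadjusted p under 0.05, 3 of the 10 genes differed in this way. Ordered by level, the groups ran from KURAMOCHI with L-778123 to KURAMOCHI with simvastatin, OVSAHO with simvastatin and OVSAHO with L-778123, and each step passed, with adjusted p of 0.00764, 0.00614 and 0.000437. Of the probes that could be named, 1 reads TXNRD1, so no other named probe bears on this pattern. Probes without a gene name were not searched.

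RefSeq lists a pair of start sites for TXNRD1 among its promoters of GRCh38.p14, and the 250 bases before each are shown because both hold the letters of an antioxidant response element, TGACNNNGC on either strand, in capitals. The first lies at chr12:104215529-104215778 on the plus strand, with the match at -99 to -91 from the start, and the second at chr12:104286782-104287031 on the plus strand, with the match on the reverse strand at -102 to -94. The files do not tie the probe to one of these starts.
TXNRD1, first start: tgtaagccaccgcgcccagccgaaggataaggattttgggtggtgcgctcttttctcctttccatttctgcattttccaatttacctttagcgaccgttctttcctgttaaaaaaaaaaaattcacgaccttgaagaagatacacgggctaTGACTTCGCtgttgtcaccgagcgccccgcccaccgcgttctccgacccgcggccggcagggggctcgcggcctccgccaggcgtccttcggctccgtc
TXNRD1, second start: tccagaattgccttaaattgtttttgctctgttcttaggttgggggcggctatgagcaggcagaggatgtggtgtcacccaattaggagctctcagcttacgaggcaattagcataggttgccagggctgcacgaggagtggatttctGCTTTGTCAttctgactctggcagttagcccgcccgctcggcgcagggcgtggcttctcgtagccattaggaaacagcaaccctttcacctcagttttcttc
The same letters occur in 10.9% of the 35116 promoters of this length. Of the 9 genes of this report with a promoter entry, 4 hold a match, which are TXNRD1, SELENOP, SELENOK and SELENON. This count is of genes and the share is of promoters, so they are not like measures. TXNRD1 and GPX4 have several promoters each, and thus more places for a match. These letters are a description of the sequence and do not show a bound factor.

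SELENOP rose in both lines. It encodes selenoprotein P, which carries several selenocysteines and delivers selenium from the liver to other tissues through receptors of the LDL receptor family. SELENOP (NM_005410) stood at 6.21 and 6.26 with simvastatin and at 5.81 and 5.71 with L-778123 in OVSAHO. In KURAMOCHI it stood at 5.94 and 5.89 with simvastatin and at 5.36 and 5.29 with L-778123. In each line both simvastatin arrays were above both L-778123 arrays. The log2 fold change was 0.48 in OVSAHO (SE 0.0635, adjusted p = 0.0021) and 0.59 in KURAMOCHI (SE 0.0635, adjusted p = 0.00202). The difference between these effects, -0.11 with a 95% interval of -0.335 to 0.109, did not pass (adjusted p = 0.416). A second probe, designed on another transcript (NM_001093726), moved the same way by more, with log2 fold changes of 0.77 in OVSAHO (adjusted p = 0.00126) and 0.92 in KURAMOCHI (adjusted p = 0.00149). Averaged over the drugs, SELENOP was 1.3-fold higher in OVSAHO than in KURAMOCHI (adjusted p = 0.000412).

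The 250 bases before the RefSeq start of SELENOP, at chr5:42811893-42812142 of GRCh38.p14 on the minus strand, are shown because they were the one stretch among those of the 9 genes that held 2 of the motifs searched, in capitals.
SELENOP: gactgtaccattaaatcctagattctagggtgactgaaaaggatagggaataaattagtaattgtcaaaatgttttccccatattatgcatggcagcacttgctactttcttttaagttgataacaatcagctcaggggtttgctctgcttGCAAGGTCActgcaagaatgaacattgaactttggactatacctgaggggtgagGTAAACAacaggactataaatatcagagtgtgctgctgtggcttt
The first capitals are the reverse-strand match to the antioxidant response element at -99 to -91, and the second are the forkhead box O letters GTAAACA at -45 to -39, which occur on either strand in 2.98% of all promoters of this length and in SELENOP alone among the 9 genes. Matches to the letters TCACNCCAC, written for a sterol regulatory element and found in 0.883% of promoters, and to the endoplasmic reticulum stress element, found in 0.074%, occurred in none of the 9. The motifs do not overlap in the promoters shown.

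**Figure D2:**
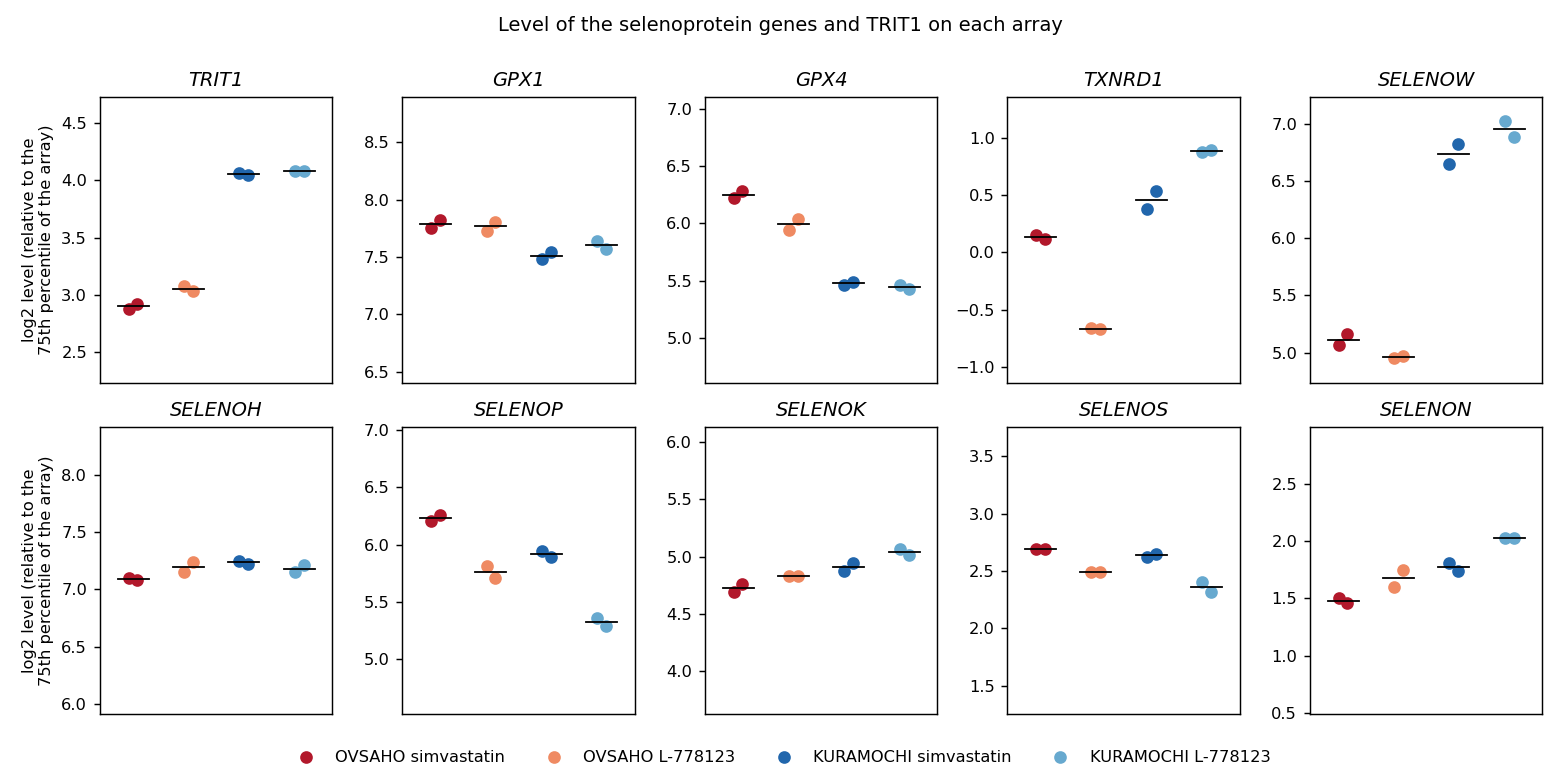
Log2 level of the 10 genes on each of the 8 arrays, relative to the 75th percentile of the array, with points for arrays and black lines for the means of 2 arrays; each panel spans the same number of log2 units. TRIT1 and SELENOW separate by cell line, SELENOP and SELENOS by drug within each line, and TXNRD1 has the order of the drugs turned between the lines.

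TRIT1 was lower in OVSAHO than in KURAMOCHI, and its drug contrasts did not pass. TRIT1 (NM_017646) stood at 2.88 and 2.92 with simvastatin and at 3.08 and 3.03 with L-778123 in OVSAHO. In KURAMOCHI the 4 arrays lay between 4.05 and 4.08. The simvastatin arrays of OVSAHO were below its L-778123 arrays, with a log2 fold change of -0.15 (SE 0.053, 95% interval -0.282 to -0.019) that did not pass (adjusted p = 0.0615). This TRIT1 contrast passed with normexp background correction (-0.19, adjusted p = 0.018), among probes well above background on all 8 arrays (adjusted p = 0.046) and with the methods' Tukey test (adjusted p = 0.0412). In KURAMOCHI the log2 fold change was -0.024 (95% interval -0.155 to 0.107, adjusted p = 0.76), and the difference of the effects was -0.13 (95% interval -0.312 to 0.059, adjusted p = 0.28). TRIT1 was 2.13-fold lower in OVSAHO than in KURAMOCHI averaged over the drugs (log2 difference -1.09, SE 0.0375, adjusted p = 1.83e-06). It is 1 of 5 of the 10 genes that were lower in OVSAHO, with 3 higher, while 40.5% of all genes were lower and 42.4% higher in this comparison. At 2-fold, TRIT1 and SELENOW were called lower and none of the 10 genes higher, beside 16.4% of all genes lower and 18.3% higher.

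Both glutathione peroxidases were higher in OVSAHO than in KURAMOCHI, although the direction for GPX1 turned with quantile normalization. GPX1 reduces hydrogen peroxide in the cytosol with glutathione as the donor. GPX1 (NM_201397) stood at 7.75 and 7.82 with simvastatin and at 7.73 and 7.81 with L-778123 in OVSAHO, so that the drugs overlapped. In KURAMOCHI it stood at 7.48 and 7.54 with simvastatin and at 7.64 and 7.57 with L-778123. Neither drug contrast passed, at 0.019 in OVSAHO (95% interval -0.139 to 0.176, adjusted p = 0.83) and -0.099 in KURAMOCHI (95% interval -0.256 to 0.059, adjusted p = 0.29). The log2 difference between the lines was 0.22 (adjusted p = 0.00477) but turned to -0.095 with quantile normalization and in the authors' processed table.

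GPX4 protects membranes from lipid peroxidation and is the peroxidase whose loss leads to ferroptosis. GPX4 (NM_001039848) stood at 6.22 and 6.28 with simvastatin and at 5.94 and 6.04 with L-778123 in OVSAHO. The groups did not overlap, and the log2 fold change was 0.26 (SE 0.0631, adjusted p = 0.0182). In KURAMOCHI it stood at 5.46 and 5.49 with simvastatin and at 5.46 and 5.43 with L-778123, with a log2 fold change of 0.031 (95% interval -0.125 to 0.187, adjusted p = 0.739). The difference between the effects, 0.23, did not pass (95% interval 0.01 to 0.451, adjusted p = 0.123), so a response particular to OVSAHO is not shown. The rise of GPX4 in OVSAHO was no longer past the threshold without OVSAHO simvastatin replicate 2 (adjusted p = 0.0858) or without OVSAHO L-778123 replicate 1 (adjusted p = 0.0745). The rise also missed the threshold with the methods' Tukey test (adjusted p = 0.059) and with no filter on dim probes (adjusted p = 0.0753). With only the 4 OVSAHO arrays the adjusted p in limma was 0.0647. GPX4 was 1.58-fold higher in OVSAHO averaged over the drugs (adjusted p = 3.03e-05).

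SELENOW and SELENOH, both small proteins with a thioredoxin-like fold, did not pass in either drug contrast. SELENOW (NM_003009) stood at 5.07 and 5.16 with simvastatin and at 4.95 and 4.97 with L-778123 in OVSAHO. In KURAMOCHI it stood at 6.65 and 6.82 with simvastatin and at 7.02 and 6.88 with L-778123. Simvastatin arrays were thus the higher in OVSAHO and the lower in KURAMOCHI, as for TXNRD1, with log2 fold changes of 0.15 (adjusted p = 0.194) and -0.22 (adjusted p = 0.106). The difference between the effects was 0.37 (95% interval 0.072 to 0.671, adjusted p = 0.0809), and it passed with normexp background correction (0.34, adjusted p = 0.0356). The line difference of SELENOW was the largest among the 10 genes, 3.50-fold lower in OVSAHO (log2 difference -1.81, SE 0.0606, adjusted p = 1.68e-06), and a second probe gave -2.00.

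SELENOH, a nuclear selenoprotein, lay within 7.08 and 7.25 on all 8 arrays. The log2 fold changes were -0.10 in OVSAHO (95% interval -0.252 to 0.046) and 0.054 in KURAMOCHI (95% interval -0.095 to 0.203). Like SELENOS, it had no line difference past the threshold (-0.065, adjusted p = 0.21), while quantile normalization gave -0.38 (adjusted p = 0.000527).

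The remaining genes encode selenoproteins of the endoplasmic reticulum. SELENOS joins the complex that draws misfolded proteins out of the endoplasmic reticulum for degradation. SELENOS (NM_018445) stood at 2.69 and 2.69 with simvastatin and at 2.49 and 2.49 with L-778123 in OVSAHO. In KURAMOCHI it stood at 2.62 and 2.65 with simvastatin and at 2.40 and 2.32 with L-778123. Both lines had simvastatin above L-778123 without overlap, with log2 fold changes of 0.20 (SE 0.0548, adjusted p = 0.0286) and 0.27 (SE 0.0548, adjusted p = 0.015). The effects differed by -0.076 (95% interval -0.268 to 0.116, adjusted p = 0.523). These small changes lost the threshold when single arrays were left out, with adjusted p up to 0.0983 in OVSAHO without its simvastatin replicate 1 and up to 0.0758 in KURAMOCHI without its L-778123 replicate 2.

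SELENOK, a cofactor of the palmitoyltransferase ZDHHC6, was 4.69 and 4.76 with simvastatin and 4.83 and 4.83 with L-778123 in OVSAHO. In KURAMOCHI it was 4.87 and 4.94 with simvastatin and 5.07 and 5.01 with L-778123. Simvastatin arrays were the lower in both lines, but neither contrast passed, at -0.11 (adjusted p = 0.182) and -0.14 (adjusted p = 0.135). SELENOK was 1.14-fold lower in OVSAHO averaged over the drugs (adjusted p = 0.00608).

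SELENON, whose loss causes a muscle disease, was read by 2 probes that did not move together. The brighter probe (NM_020451) stood at 1.5 and 1.46 with simvastatin and at 1.60 and 1.75 with L-778123 in OVSAHO, and at 1.81 and 1.74 against 2.03 and 2.03 in KURAMOCHI. Its log2 fold changes were -0.19 in OVSAHO (adjusted p = 0.0684) and -0.26 in KURAMOCHI (SE 0.0707, adjusted p = 0.0389). The dimmer probe of the same transcript had log2 fold changes of 0.34 (adjusted p = 0.155) and 0.50 (adjusted p = 0.0801), above 0 where the brighter probe was below. The fall in KURAMOCHI was lost without any 1 array of that line, with adjusted p of 0.0907 to 0.155, and with either OVSAHO simvastatin array left out, at 0.0639. Both probes were lower in OVSAHO than in KURAMOCHI, by -0.32 (adjusted p = 0.00137) and -0.78 (adjusted p = 0.00152).

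Among 16 further selenoproteins, 13 were tested and the probes of GPX6, DIO1 and DIO3 were too dim. In OVSAHO 3 rose and 4 fell, and in KURAMOCHI 2 rose and 1 fell, with medians of 0.027 and 0.092. Over all genes 26.5% rose and 27.5% fell in OVSAHO, and 17.1% rose and 18.4% fell in KURAMOCHI, and the counts of these 13 lay near or below those shares. SELENOM, a thioredoxin-like protein of the endoplasmic reticulum, had the largest rise. It stood at -0.01 and 0.07 with simvastatin and at -1.58 and -1.36 with L-778123 in OVSAHO, where it rose by 1.5 (SE 0.0893, adjusted p = 0.000126), and between 4.19 and 4.40 in KURAMOCHI, where the fold change of 0.15 did not pass. The effects of SELENOM differed by 1.35 (adjusted p = 0.00199), and its level differed 31.9-fold between the lines averaged over the drugs.

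GPX3, the secreted glutathione peroxidase, moved opposite to TXNRD1. It stood at 1.88 and 1.93 with simvastatin against 2.33 and 2.45 in OVSAHO, and at 2.97 and 3.00 against 2.39 and 2.39 in KURAMOCHI. GPX3 fell by 0.48 in OVSAHO (adjusted p = 0.00179) and rose by 0.60 in KURAMOCHI (adjusted p = 0.00175), a difference of -1.08 (adjusted p = 0.00126), and its second probe gave -0.44 and 0.57. SELENOV, a selenoprotein best known from testis, had the same signs at a low level, with log2 fold changes of -0.36 (adjusted p = 0.0334) and 0.57 (adjusted p = 0.0109). Its dimmer probe had -0.19 (adjusted p = 0.632) and 0.68 (adjusted p = 0.148). Neither SELENOV call was kept by the methods' Tukey test (adjusted p = 0.206 in OVSAHO and 0.102 in KURAMOCHI). With normexp background correction its OVSAHO value was -0.086 (adjusted p = 0.25). TXNRD2, the mitochondrial thioredoxin reductase, fell in both lines on its brighter probe, by 0.25 (adjusted p = 0.0379) and 0.28 (adjusted p = 0.0395). Its dimmer probe had -0.15 (adjusted p = 0.39) and -0.054 (adjusted p = 0.792). Neither TXNRD2 call was kept by the methods' Tukey test (adjusted p = 0.164 in OVSAHO and 0.183 in KURAMOCHI). With normexp background correction the KURAMOCHI value was -0.086 (adjusted p = 0.302). SEPHS2 and SELENOO rose in OVSAHO, by 0.33 (adjusted p = 0.00467) and 0.20 (adjusted p = 0.0421). DIO2, the deiodinase that activates thyroid hormone, was not well above background on the 2 OVSAHO simvastatin arrays, at a mean of -5.14, and stood at a mean of -3.70 with L-778123, which was at least 1.87-fold higher (adjusted p = 0.00747), a call that normexp background correction did not keep (adjusted p = 0.307). GPX2, TXNRD3, MSRB1, SELENOF, SELENOI and SELENOT did not pass in either line, although 1 of 3 dimmer SELENOT probes fell by 0.33 (adjusted p = 0.00684) and 0.28 (adjusted p = 0.0187). The smaller of these calls lay near the threshold. Leaving out 1 array at a time, those of TXNRD2 were lost without 6 of the 8 arrays in OVSAHO and without 7 in KURAMOCHI. Those of SELENOO and SELENOV in OVSAHO were lost without 7, among them KURAMOCHI arrays, whose removal left the fold changes at 0.20 and -0.36.

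Selenocysteine is built from serine on its transfer RNA, with selenophosphate as the selenium donor. All 12 genes of this machinery were tested, of which 5 rose and 2 fell in OVSAHO, and 2 rose and 2 fell in KURAMOCHI, with medians of 0.13 and 0.14, where the shares of all genes were 26.5% and 27.5% in OVSAHO and 17.1% and 18.4% in KURAMOCHI. SARS1, which charges the transfer RNA with serine, stood at 6.69 and 6.82 with simvastatin against 5.93 and 5.99 in OVSAHO, and at 6.44 and 6.49 against 6.04 and 6.0 in KURAMOCHI. SARS1 rose by 0.80 (adjusted p = 0.000433) and 0.44 (adjusted p = 0.00661), while a dimmer probe of a noncoding transcript gave -0.099 and 0.12, neither past the threshold. PSTK, the kinase of the seryl transfer RNA, rose by 0.38 in OVSAHO (adjusted p = 0.00583), and TRNAU1AP, a protein that binds the selenocysteine transfer RNA, rose by 0.67 (adjusted p = 0.00115). SECISBP2L, a paralog of the protein that binds the hairpin, rose by 0.43 in OVSAHO (adjusted p = 0.00292) and had 0.20 in KURAMOCHI (adjusted p = 0.0566). Its dimmer probe rose in both lines, by 0.49 in OVSAHO (adjusted p = 0.0141) and 0.64 in KURAMOCHI (adjusted p = 0.00931). SEPHS2, already counted among the further selenoproteins above, is also 1 of the 5 that rose here in OVSAHO. ALKBH8, which modifies the wobble base of the selenocysteine transfer RNA, rose by 0.33 in KURAMOCHI (adjusted p = 0.0413), a call lost without any of 5 of the 8 arrays.

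The genes of this group that fell were SEPHS1 and SCLY, in both lines. SEPHS1, a relative of selenophosphate synthetase without selenocysteine, fell by 0.67 in OVSAHO (adjusted p = 0.000516) and by 0.29 in KURAMOCHI (adjusted p = 0.0168). SCLY, the lyase that recycles selenium from free selenocysteine, fell by 0.54 (adjusted p = 0.000643) and by 0.24 (adjusted p = 0.0199). The KURAMOCHI calls of both genes were lost without any of 4 of the 8 arrays, with adjusted p up to 0.0801 and 0.0846. SEPSECS, SECISBP2, EEFSEC and RPL30 did not pass in either line. Of these, EEFSEC, the elongation factor that brings in the selenocysteine transfer RNA, had log2 fold changes of 0.096 (95% interval -0.144 to 0.337) and 0.079 (95% interval -0.161 to 0.32).

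**Figure D3:**
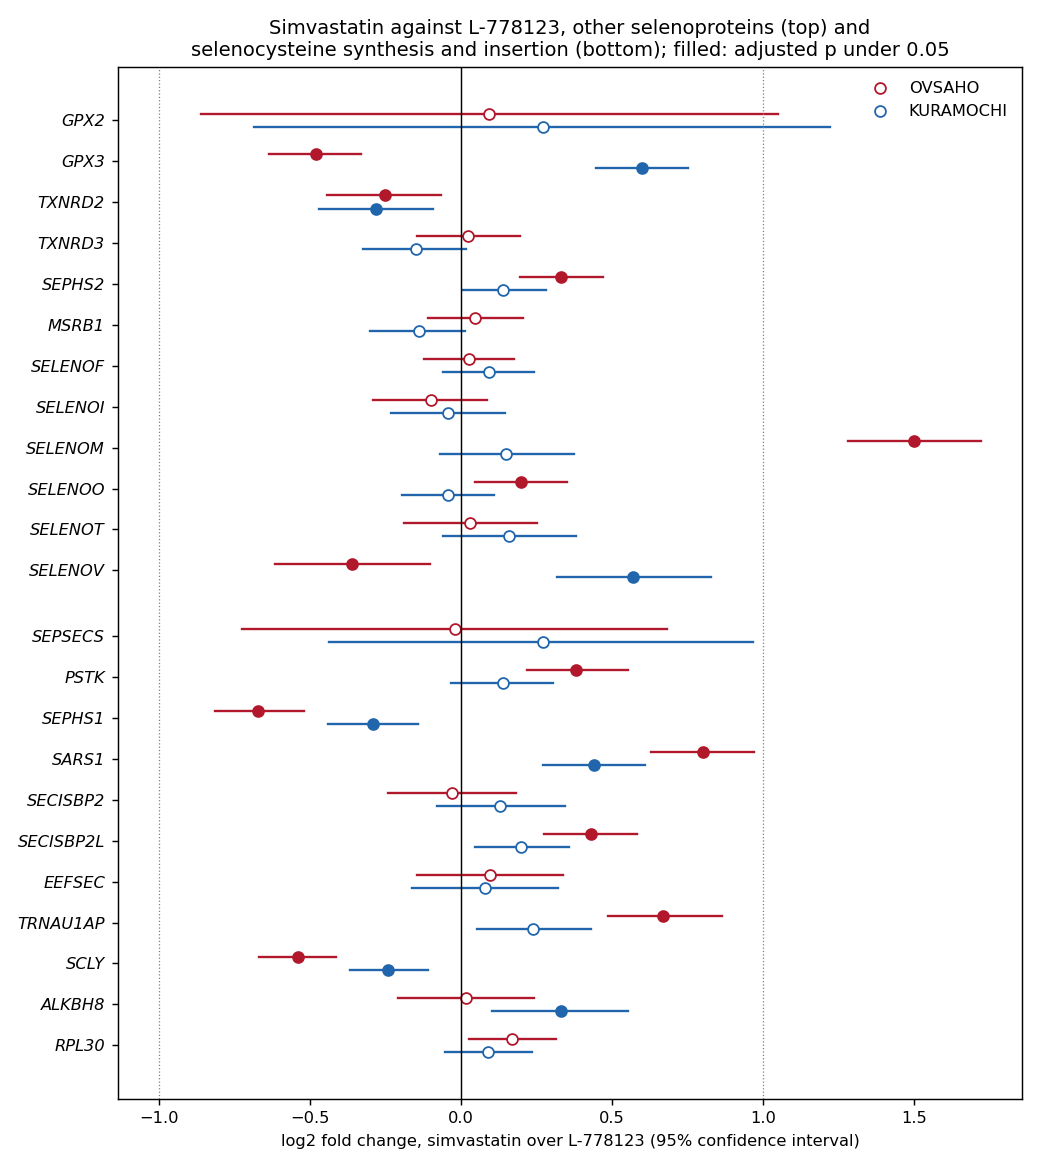
Log2 fold change of simvastatin over L-778123 with its 95% confidence interval for the other selenoproteins well above background on all arrays (top) and for the machinery of selenocysteine synthesis and insertion (bottom), in OVSAHO (red) and KURAMOCHI (blue), filled where the adjusted p was under 0.05. SELENOM lies at 1.5 in OVSAHO, GPX3 and SELENOV lie on opposite sides of 0 in the 2 lines, and SEPHS1 and SCLY lie below 0 in both.

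Several selenoproteins have homologues in which another residue, mostly cysteine, stands in for selenocysteine. Of 6 such genes, 4 fell and 0 rose in OVSAHO, and 3 fell and 0 rose in KURAMOCHI, with medians of -0.69 and -0.25; at an unadjusted p under 0.05, 4 differed in each line. Of all genes, 27.5% fell in OVSAHO and 18.4% in KURAMOCHI, and SEPHS1, counted here among the genes that fell, is also counted in the machinery above. GPX8, a peroxidase of the endoplasmic reticulum, stood at 2.57 and 2.59 with simvastatin against 4.72 and 4.61 in OVSAHO and fell by 2.08 (adjusted p = 4.07e-05). In KURAMOCHI its log2 fold change was -0.21 (adjusted p = 0.0967), and the effects differed by -1.87 (adjusted p = 0.000643). The methionine sulfoxide reductases MSRB2 and MSRB3 fell in both lines, MSRB2 by 0.71 (adjusted p = 0.00034) and 0.37 (adjusted p = 0.00633), and MSRB3 by 0.74 (adjusted p = 0.00067) and 0.66 (adjusted p = 0.00209). Their selenocysteine relative MSRB1 had log2 fold changes of 0.048 (adjusted p = 0.57) and -0.14 (adjusted p = 0.142). LRP8, a receptor that takes up selenoprotein P, fell by 0.66 (adjusted p = 0.00464) and 0.41 (adjusted p = 0.0379), while LRP2, a receptor of the same family, had -0.25 (adjusted p = 0.103) and rose by 0.40 in KURAMOCHI (adjusted p = 0.0378); the KURAMOCHI calls of LRP8 and LRP2 were each lost without any of 6 of the 8 arrays.

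The enzymes that lead to dimethylallyl diphosphate, the substrate of TRIT1, rose with simvastatin for the most part. A list of 8 genes holds those that supply or use dimethylallyl diphosphate and also CDK5RAP1, which acts after TRIT1. Of these 8 genes, 4 rose and 2 fell in OVSAHO, and 6 rose and 0 fell in KURAMOCHI, with medians of 0.26 and 1.13. The shares of all genes that rose and fell were 26.5% and 27.5% in OVSAHO, and 17.1% and 18.4% in KURAMOCHI. All 8 had an unadjusted p under 0.05 in KURAMOCHI. HMGCS1, a synthase early in the pathway, rose by 0.40 in OVSAHO (adjusted p = 0.00309) and by 1.57 in KURAMOCHI (adjusted p = 0.000147). IDI1, which makes dimethylallyl diphosphate from its isomer, was at -0.0091 in OVSAHO (adjusted p = 0.949) and rose by 1.31 in KURAMOCHI (adjusted p = 0.000735). The effects of the lines differed by -1.17 for HMGCS1 (adjusted p = 0.000941) and -1.31 for IDI1 (adjusted p = 0.00313). The 2 genes that fell in OVSAHO, named after their values were seen, were FDPS, which uses dimethylallyl diphosphate to make longer isoprenoids, by 0.58 (adjusted p = 0.000703), and CDK5RAP1, which modifies the product of TRIT1 further, by 0.27 (adjusted p = 0.0175).

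Partners of the peroxidases and reductases were split. Of 17 genes of glutathione and thioredoxin metabolism, 5 rose and 8 fell in OVSAHO, and 3 rose and 4 fell in KURAMOCHI, with medians of -0.18 and -0.019. Apart from the falls in OVSAHO, beside 27.5% of all genes, these counts lay near the background of 26.5% higher in OVSAHO and 17.1% higher and 18.4% lower in KURAMOCHI. TXNIP, which binds and inhibits thioredoxin, rose by 0.82 (adjusted p = 0.000286) and 0.87 (adjusted p = 0.000585). SLC3A2, a subunit of the cystine transporter, rose by 0.64 in OVSAHO (adjusted p = 0.00103) and had 0.22 in KURAMOCHI (adjusted p = 0.0618). PRDX4, the peroxiredoxin of the endoplasmic reticulum, fell by 0.56 in OVSAHO (adjusted p = 0.00199) and had -0.11 in KURAMOCHI (adjusted p = 0.291).

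Of 10 genes that work with SELENOS and SELENOK in the endoplasmic reticulum, 4 rose and 2 fell in OVSAHO, and 4 rose and 1 fell in KURAMOCHI, with medians of 0.092 and 0.15, beside 26.5% higher and 27.5% lower over all genes in OVSAHO and 17.1% and 18.4% in KURAMOCHI. The genes that fell, against the direction of SELENOS, were VCP in both lines and DERL2 in OVSAHO, named after their values were seen. HERPUD1, a stress-induced scaffold of protein degradation, rose by 0.59 (adjusted p = 0.000537) and 0.53 (adjusted p = 0.00166), in the direction of SELENOS. SEL1L, an adaptor of the same ubiquitin ligase complex, rose by 0.43 (adjusted p = 0.00268) and 0.46 (adjusted p = 0.00405), which did not pass with the median over its probes (adjusted p = 0.791 and 0.423). DERL3, a component of the retrotranslocation channel, rose by 0.38 (adjusted p = 0.0245) and 0.51 (adjusted p = 0.0141) on its brightest probe, but with its probe of lowest spread DERL3 had -0.99 in OVSAHO (adjusted p = 0.000373) and 1.85 in KURAMOCHI (adjusted p = 0.000189). ZDHHC6, the enzyme that SELENOK assists, had -0.21 (adjusted p = 0.0838) and -0.17 (adjusted p = 0.171), and was named after its values were seen.

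**Figure D4:**
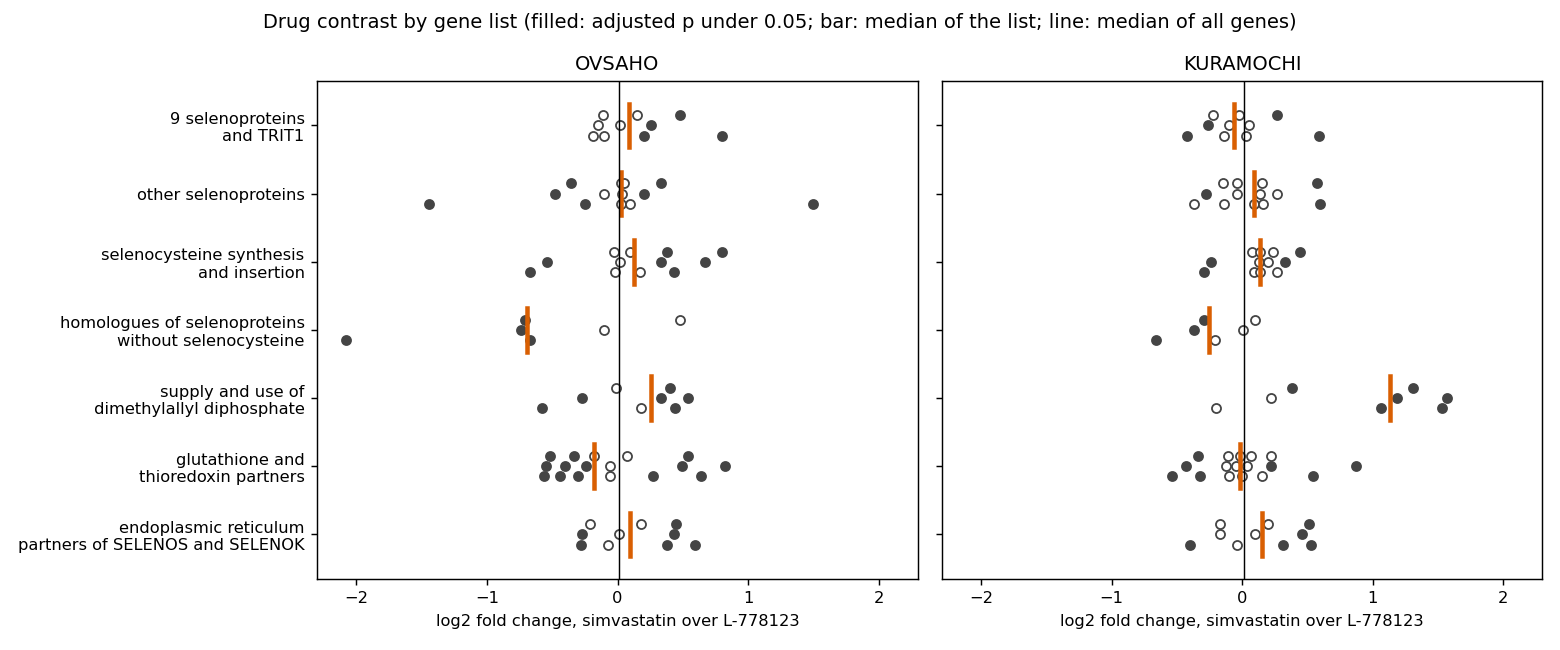
Log2 fold change of simvastatin over L-778123 for each gene tested of 7 lists in OVSAHO (left) and KURAMOCHI (right), filled where the adjusted p was under 0.05, with an orange bar for the median of the list and a vertical line for the median of all genes; DIO2, the lowest of the other selenoproteins in OVSAHO, is a bound plotted at its fitted value. The 10 genes of the first line lie between -0.19 and 0.80 in OVSAHO and between -0.42 and 0.59 in KURAMOCHI, and the genes of dimethylallyl diphosphate supply and use reach 1.57 in KURAMOCHI.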

How the data were processed

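RNA for the 8 arrays was labelled with Cy3 and hybridised to one-color Agilent SurePrint G3 human arrays. The authors extracted the deposited scanner intensities with Agilent Feature Extraction 11.5.1.1 (per the labels), which subtracts the background, and their processed table holds linear intensities whose sorted values matched across arrays, as quantile normalization gives; it served as an alternative. Here spots of a probe were averaged, processed signals were divided by the 75th percentile over probes of each array, as the methods state, and log2 was taken. Control spots and outlier flags were left out, which dropped 39 of 58201 probes, and 33752 probes entered the test, each detected above background by the scanner software on every array of 1 group or more. The test was that of limma 3.58.1 in R 4.3.3, with 4 group means, empirical Bayes moderation and Benjamini-Hochberg adjustment. Probes were named through RefSeq accessions, which matched 24782 of 50096 identifiers. The scripts were tested on simulated data. The normexp alternative used median spot and background signals, since mean spot signals were not used here. The 10 genes, all lists, the motifs and the tests were chosen with earlier results of these data known. Named are all 10 genes, tested genes of the other selenoproteins and of the selenocysteine machinery, and from each further list at most the 3 with the largest fold change in either line, of which 1 gene is not reported here. FDPS, CDK5RAP1, VCP, DERL2 and ZDHHC6 were named outside this rule, after their values were seen. The number of arrays limits the precision.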

Additional observations from a re-analysis of the deposited data

Results flagged for a closer look

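The response to simvastatin relative to L-778123 differed between the cell lines, by the interaction term in limma, for 8 of the 34 selenoprotein and selenocysteine machinery genes tested, TRIT1 among the 34. The difference was above 0 for 4 and below 0 for 4, beside 13.4% and 14.0% of all genes, so the count is no larger than the background share. The OVSAHO effect minus the KURAMOCHI effect, on the log2 scale, was 1.22 for TXNRD1 and 1.35 for SELENOM, both larger in OVSAHO. It was -1.08 for GPX3 and -0.93 for SELENOV, each of which fell in OVSAHO and rose in KURAMOCHI. Among the machinery genes it was 0.36 for SARS1 and 0.43 for TRNAU1AP, and -0.38 for SEPHS1 and -0.30 for SCLY, with adjusted p of 0.0485, 0.0386, 0.0289 and 0.0359. These 4 were not kept when single arrays were left out: SARS1 and SCLY lost the call without any 1 of the 8 arrays, with adjusted p up to 0.133 and 0.0987, and TRNAU1AP and SEPHS1 without any of 7, with adjusted p up to 0.103 and 0.0866. The difference for SELENOV did not pass in limma with the median over its probes (adjusted p = 0.0628). With 2 arrays per group, no array could be tested as an outlier of its group.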

How the results depend on the processing

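Among results for single genes of the 10, 704 of 770 values under alternatives kept direction and side of the threshold, 29 lost and 16 gained it, and 21 turned direction, and of 1369 values for the other genes named, 1192 kept both, 152 lost and 11 gained the threshold and 14 turned; the cause was not tested. TXNRD1 and SELENOP passed in both lines under every alternative, at an adjusted p under 0.05 with no minimum fold. The 4 genes higher in OVSAHO became 2 with no filter on dim probes, 2 with only the arrays of that line, 2 at an adjusted p under 0.01, 1 at 1.5-fold and 0 at 2-fold, and 2 to 4 with 1 array left out, the 2 without simvastatin replicate 2 or L-778123 replicate 1. The 0 lower became 3 with normexp, 2 with probes well above background on all 8 arrays and 1 with the methods' Tukey test, and 0 to 1 with 1 array left out. In KURAMOCHI, the 2 higher became 1 with no filter, the arrays of that line alone, an adjusted p under 0.01 or 1.5-fold, 0 at 2-fold, and 1 to 2 with 1 array left out. The 2 lower became 3 with normexp, where SELENOW joined, 1 with no filter, Tukey's test, the arrays of that line alone, the median over probes or an adjusted p under 0.01, 0 at 1.5-fold or 2-fold, and 1 to 2 with 1 array left out. The 1 gene with a larger effect in OVSAHO became 2 with normexp. Between the lines, the 3 higher became 1 at 1.5-fold and 0 at 2-fold, and the 5 lower became 3 and 2. The 3 higher became 4 with normexp, Tukey's test or the percentile over spots, where SELENOS joined, and the 5 lower became 7 with quantile normalization and in the authors' table, where GPX1 and SELENOH joined.

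Direction turned with quantile normalization and in the authors' processed table for TRIT1 in KURAMOCHI (0.0079 and 0.0088), GPX1 in OVSAHO (-0.11 in both), its difference of effects (-0.045 and -0.046) and its line difference (-0.095 in both), the difference of effects of SELENOK (-0.024 and -0.028) and IDI1 in OVSAHO (0.026 in both). IDI1 was 0.0068 with the percentile over bright probes and 0.0012 with the percentile over spots, chosen after seeing the data. With normexp, GPX1 in OVSAHO was -0.033 and the difference of effects of TXNRD2 -0.093. With the median over probes, SELENON was 0.074 in OVSAHO and 0.12 in KURAMOCHI with a difference of -0.043, the TXNRD2 difference was -0.037 and DERL3 in OVSAHO was -0.30. With the probe of lowest spread, GPX1 and DERL3 in OVSAHO were -0.011 and -0.99. With 1 array left out, values ran from -0.019 to 0.056 for GPX1, -0.063 to 0.098 for ALKBH8 and -0.094 to 0.076 for IDI1 in OVSAHO, and the difference of effects from -0.0043 to 0.062 for SELENOK, -0.0073 to 0.14 for SELENON and -0.061 to 0.11 for TXNRD2.

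For arrays with the same replicate number, deviations from group means correlated at 0.000845 to 0.0556 over the probes tested. These values show no strong common shift, and cannot tell whether the arrays shared a culture or a batch. With the replicate number as a block, the 2 genes lower in KURAMOCHI became 1, without SELENON (adjusted p = 0.0669), and the 4 higher in OVSAHO became 3, without SELENOS (0.0511). The block also took the calls of TXNRD2 in both lines, SELENOO and SELENOV in OVSAHO, LRP8 and LRP2 in KURAMOCHI, and the differences of effects of SARS1, TRNAU1AP, SEPHS1 and SCLY, with adjusted p of 0.0517 to 0.0661.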
